A study of Mus musculus with 10 samples.

Results

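The cells compared here come from mice homozygous for OB11, a genotype whose nature the labels do not give. CD4lo cells, which carry little CD4 on the surface, were set against CD4hi cells, which carry much of it, with 2 libraries on each side, 4 of the 10 libraries of the series. All genes in the deposited table entered, 34573 in number, of which 12193 had enough counts to be tested. Every library was made from naive spleen T cells of mice aged 6 weeks, sorted as positive for the T cell receptor beta chain, high for CD62L and negative for CD25 and CD44. The other groups, used only for orientation, were OB11 cells with both coreceptors (DP) and wild-type cells of the CD4 and CD8 lineages (WT CD4 and WT CD8), each with 2 libraries. Whether the 2 libraries of a group come from different mice is not in the labels, so a p-value here reflects only how far these libraries scatter, and that scatter may be technical.

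The zinc finger factor ThPOK, encoded by Zbtb7b, holds developing and mature T cells in the CD4 helper lineage, and the factor Runx3 drives the CD8 cytotoxic lineage and silences Cd4. Both factors repress each other's programme, and ThPOK also acts on its own gene. Helper cells include regulatory T cells, marked by the factor Foxp3, and follicular helper cells, which guide B cells. Gamma delta T cells form a separate lineage with another receptor, and both they and cytotoxic cells can carry receptors first described on natural killer (NK) cells.

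In CD4lo cells 336 genes were higher than in CD4hi cells and 521 were lower, at an edgeR adjusted p under 0.05. These 857 genes are 7.03% of those tested (2.76% higher and 4.27% lower), and the median log2 fold change over all tested genes was -0.02. For 5776 genes (47.4%) the libraries of the 2 groups did not overlap, so a lack of overlap alone says little. At least a 2-fold change was estimated for 135 of the higher and 283 of the lower genes. Most core genes of regulatory and follicular helper T cells were lower in CD4lo cells, and so were 7 of 16 inhibitory receptors and 12 of 28 reporters of T cell receptor signalling. Some genes are on several lists, so counts over different lists are not separate results. Of 18 genes of the CD8 lineage 10 were higher, as were single NK receptor and gamma delta T cell genes such as Klrk1 and Cd163l1. Cd163l1 had enough counts to be tested only through the CD4lo libraries. Leaving out CD4lo 1, CD4lo 2, CD4hi 1 or CD4hi 2 brought the 857 calls to 533, 507, 532 and 573, so counts under these 4 omissions are given beside the gene groups below. These refits test partly other genes, so such a count need not hold the same members.

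The titles of the CD4lo and WT CD4 libraries carry a mark L that those of the other groups lack, and what it stands for is not given. In this comparison the mark lies with the group, so the 2 cannot be told apart. In WT CD8 against WT CD4 the mark lies on the other side, and that comparison shares no library with this one, so its values are given beside the results. Genes "following the mark" have all 4 L libraries on one side of the 6 others. Library totals ran from 5055956 to 7417789 counts. CD4hi 1 and WT CD4 2 had a count for 23545 and 25272 genes, against 15532 to 17345 in the 8 other libraries.

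Zbtb7b and both coreceptors were read first, the coreceptors since they check the sort. Zbtb7b stood at 27.7 and 27.9 CPM (the gene's counts relative to the library size scaled by TMM, in the standard CPM unit) in the CD4hi libraries and at 9.38 and 8.62 in the CD4lo libraries. Its log2 fold change was -1.62 ± 0.14 (SE, n = 2 per group, adjusted p = 2.19e-06). Cd4, the helper coreceptor, stood at 446 and 521 CPM in CD4hi and 33.2 and 34.9 in CD4lo cells. The CD4hi and CD4lo libraries lay far apart for both genes, and the direction for Cd4 was that of the sort. In bulk libraries fewer cells that express a gene and less RNA per cell cannot be told apart, here and below.

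Cd8b1, the beta chain of CD8, stood at 25.2 and 19.6 CPM in CD4hi and 55.8 and 65.2 in CD4lo libraries, a log2 fold change of 1.43 ± 0.12 (adjusted p = 1.58e-06). Cd8a, the alpha chain, was near the floor in both groups, with 1.61 and 1.02 against 2.95 and 2.54 CPM, and did not pass the test (1.08 ± 0.48, adjusted p = 0.231). The Cd8a mean was 2.16 CPM in WT CD4 and 604 in WT CD8 cells, so both groups stood near the WT CD4 level. Runx3 stood at 180 and 178 CPM in CD4hi and at 259 and 253 in CD4lo cells, and rose by 0.52 ± 0.08 on the log2 scale (adjusted p = 0.000501). For these 4 genes that passed the test, the call held whichever of the 4 libraries was left out.

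**Figure D1:**
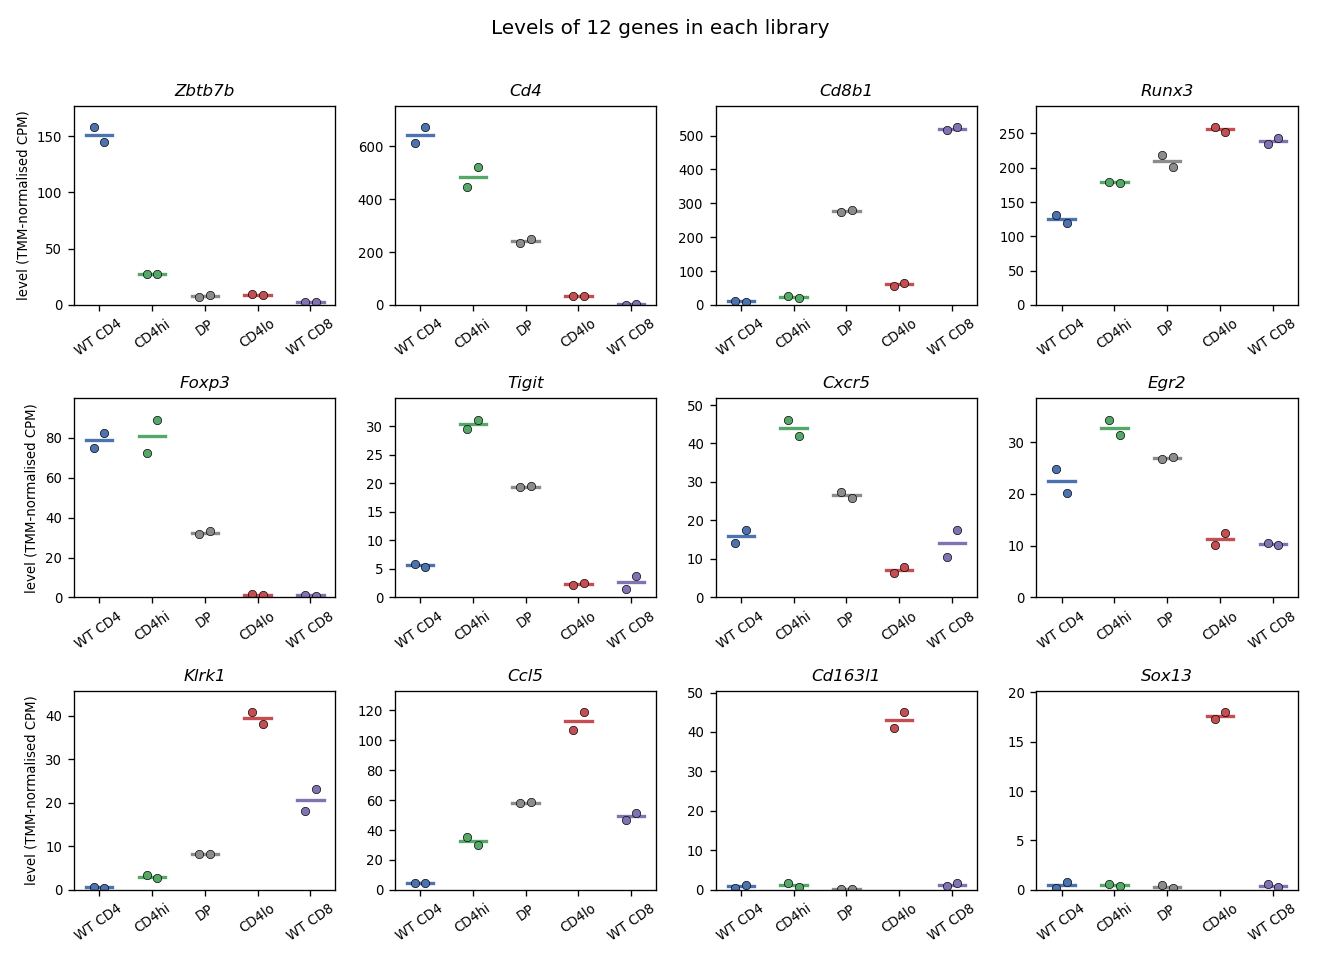
Level of 12 genes in each of the 10 libraries, in TMM-normalised CPM on linear axes that start at 0. Points are libraries and bars are group means of 2 libraries. CD4lo cells had the lowest Tigit and Cxcr5 means and the highest Klrk1, Ccl5, Cd163l1 and Sox13 means of the 5 groups. Cd163l1 and Sox13 passed the low-count filter only through CD4lo.

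The helper programme was mostly lower in CD4lo cells. Of 10 CD4 lineage genes tested, 7 were lower and 1 was higher, with a median log2 fold change of -0.63, and 5 to 7 were lower with 1 library left out. One of the lower calls follows the mark, and without it 6 were lower. In WT CD8 against WT CD4, 7 of the 10 were lower and 3 higher. Since Cd4 is on this list and Cd8a and Cd8b1 on the CD8 list, both counts rest in part on the sort. Tox, a factor needed for CD4 lineage development, fell by 0.86 ± 0.10, and Folr4, the folate receptor family member also known as Izumo1r, fell by 0.84 ± 0.09. Cd40lg, the helper signal to B cells, was lower at 32.8 and 40.1 CPM against 54.8 and 62.5, but the call ended without CD4lo 1 or CD4hi 2 (adjusted p up to 0.0724). Socs3, a brake on cytokine signalling, was the member that was higher (0.37 ± 0.09), and this call ended without CD4lo 2 or CD4hi 1 (adjusted p up to 0.111).

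Regulatory T cell genes were lower as a group. Of 21 core genes tested, 16 were lower and 0 higher, with a median of -1.64, and 15 to 17 were lower with 1 library left out. Foxp3, their defining factor, stood at 72.3 and 89.1 CPM in CD4hi and at 1.47 and 1.18 in CD4lo cells. The fold change was -5.88 ± 0.19 on the log2 scale (adjusted p = 1.47e-10), and the 2 groups did not come near each other. In the other groups Foxp3 averaged 78.8 CPM in WT CD4, 32.5 in DP and 1.15 in WT CD8 cells, so the CD4lo level was close to that of WT CD8 cells. Lrrc32, which docks latent TGF-beta on regulatory T cells, had 231 counts over the CD4hi and 2 over the CD4lo libraries, a ratio of 126 scaled by library size (34.6 to 1050, 95% counting interval).

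Further members covered surface receptors and factors. Nrp1, a coreceptor common on thymus-derived regulatory cells, stood at 35.8 and 36.2 CPM against 3.48 and 4.31, and fell by 3.23 ± 0.16. Ctla4, an inhibitory receptor, fell from 76.2 CPM in each CD4hi library to 12.7 and 14.3 (-2.50 ± 0.11). Ikzf2, the Ikaros family factor Helios, fell by 1.94 ± 0.10, and Penk, which encodes an opioid precursor, by 4.02 ± 0.51. Il2ra, which encodes CD25, stood at 79.8 and 89.8 CPM in CD4hi and 24.0 and 28.8 in CD4lo cells (-1.70 ± 0.13), although the sort excluded cells with CD25 on the surface. Itgae, an integrin chain on the same list, fell by 1.27 ± 0.09 in CD4lo cells and follows the mark, being higher in WT CD8 than in WT CD4 cells (1.94).

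Genes linked to regulatory cells of tissues split. Of 20 tested, 7 were lower and 3 higher, and 4 to 6 were lower with 1 library left out. Il10, an anti-inflammatory cytokine, had 37 counts over the CD4hi and 0 over the CD4lo libraries, at least 13.5-fold lower against 3 counts over the group, and it passed the low-count filter only through CD4hi. Its call ended without CD4lo 1, CD4lo 2 or CD4hi 2 (adjusted p up to 0.14). Cxcr6, a chemokine receptor of tissue-homing cells, moved the other way, from 8.05 and 8.81 CPM to 49.2 and 48.0 (2.52 ± 0.19). Ccr2, another chemokine receptor, rose by 1.30 ± 0.21. Of genes outside this list, Itgb8, an integrin chain that activates TGF-beta, had 74 counts in CD4hi against 1 in CD4lo (ratio 80.9, 14.1 to 3240). Il1r2, a decoy receptor for interleukin 1, had 86 against 1 (ratio 94.1, 16.4 to 3760).

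Follicular helper genes were lower in CD4lo cells to a like extent. Of 12 tested, 10 were lower and 0 higher, with a median of -1.68, and 9 or 10 were lower with 1 library left out. Cxcr5, which brings cells to the B cell follicle, stood at 46.2 and 41.8 CPM in CD4hi and 6.43 and 7.83 in CD4lo cells, and fell by 2.64 ± 0.21. Il21, their main cytokine, had 134 counts over the CD4hi and 1 over the CD4lo libraries (ratio 147, 25.9 to 5830). Tox2 stood at 19.1 and 18.5 CPM against 0.67 and 1.76 (-4.04 ± 0.34), and Bcl6, the factor that directs these cells, fell by 0.91 ± 0.15.

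Between the wild-type lineages Cxcr5 did not pass the test (-0.15), and it passed that of the difference of the 2 comparisons. The CD4hi mean of Cxcr5 was 44.0 CPM against 15.9 in WT CD4 cells, so the CD4hi level lay above that of both wild-type groups. The summed level of the 12 genes was 777.6 and 808.4 CPM in CD4hi, 420.1 and 441.7 in CD4lo, 481.6 and 483.4 in WT CD4 and 297.5 and 317.7 in WT CD8 libraries. CD4hi cells were the highest of the 5 groups on this sum, and CD4lo cells lay between the wild-type groups.

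**Figure D2:**
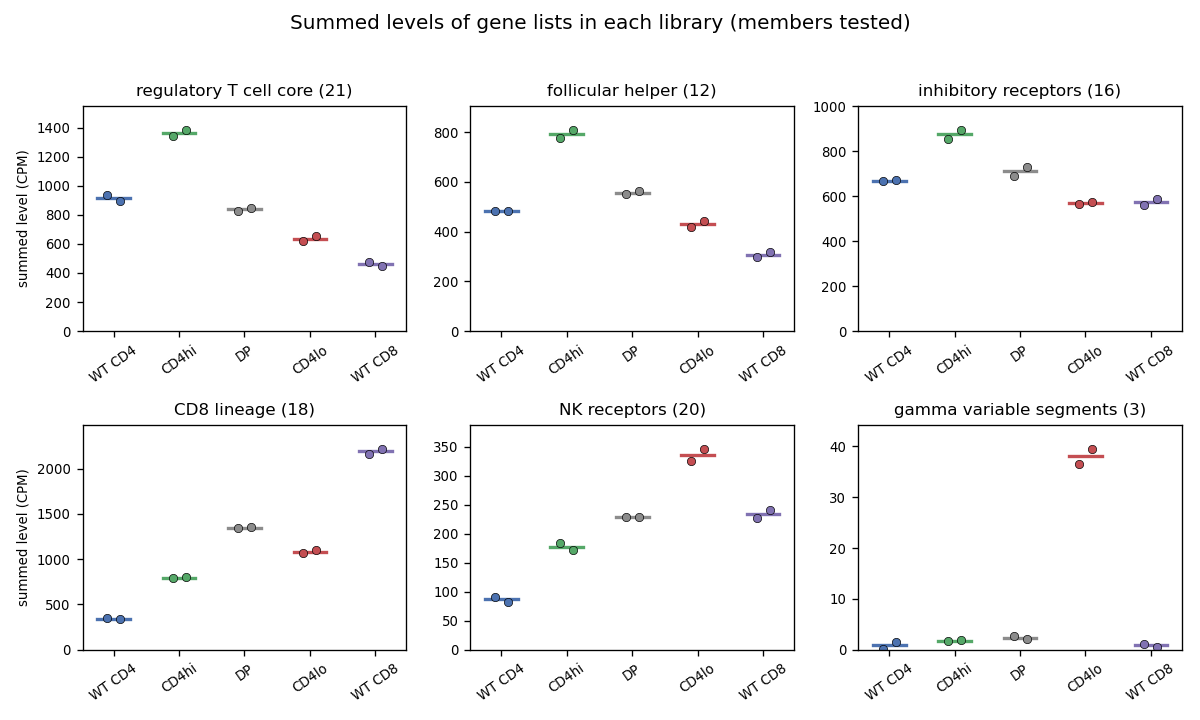
Summed level of the tested members of 6 gene lists in each of the 10 libraries, in TMM-normalised CPM on linear axes that start at 0, with the number of members in brackets. Points are libraries and bars are group means of 2 libraries. CD4hi cells had the highest regulatory, follicular helper and inhibitory receptor sums. The gamma variable sum was 36.6 and 39.6 in CD4lo against at most 2.66 in the other libraries. All 3 gamma segments and 8 of the 20 NK receptors passed the low-count filter only through CD4lo, so these 2 panels do not support a direction.

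Inhibitory receptors, which dampen T cell activation, were lower in CD4lo cells in 7 of 16 tested and higher in 0, with a median of -0.86. The count stayed at 7 with any 1 library left out. Of the lower members, Ctla4, Tigit, Lag3 and Cd200 are also on the regulatory, tissue regulatory or follicular helper lists above. Tigit stood at 29.5 and 31.2 CPM in CD4hi and 2.14 and 2.54 in CD4lo cells (-3.70 ± 0.26). Lag3, a receptor that binds the class II molecules also bound by CD4, stood at 32.9 and 38.5 CPM against 4.16 and 4.70 (-3.02 ± 0.21). Tigit and Lag3 averaged 5.64 and 3.87 CPM in WT CD4 cells, so for both the CD4hi level stood above the wild-type levels. Cd200, a ligand of an inhibitory receptor, fell by 2.12 ± 0.22. Pdcd1, which encodes PD-1, was lower at 9.65 and 10.2 CPM against 19.3 and 20.3.

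Reporters of T cell receptor signalling and immediate early genes were lower in CD4lo cells in 12 of 28 tested and higher in 0, with a median of -0.40, and 8 or 9 were lower with 1 library left out. Egr2, a factor switched on by the receptor, stood at 34.4 and 31.3 CPM in CD4hi and 10.2 and 12.5 in CD4lo cells (-1.55 ± 0.15). Egr1 fell by 1.16 ± 0.09, and Nr4a1, which encodes the signal reporter Nur77, by 0.86 ± 0.13. Irf4, a factor graded by signal strength, stood at 60.1 and 61.8 CPM against 11.4 and 13.9 (-2.29 ± 0.12). Cd5, a surface tuner of receptor signals, stood at 258 CPM in each CD4hi library and at 137 and 140 in the CD4lo libraries (-0.90 ± 0.08). Cd69, an early activation marker, did not pass the test (-0.26 ± 0.09, adjusted p = 0.0953).

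The receptor itself changed in part. Trac, the constant region of the alpha chain, stood at 295 and 309 CPM in CD4hi and 199 and 149 in CD4lo libraries (-0.79 ± 0.12, adjusted p = 0.000571). The beta constant regions did not pass the test, with Trbc1 at -0.06 ± 0.12 and Trbc2 at 0.16 ± 0.12, and nor did Cd3e (-0.09 ± 0.08). Of 36 alpha variable segments tested, 0 were called by edgeR or DESeq2 and 4 had an unadjusted p under 0.05, and of 18 beta segments 1 was lower, a call that ended with each library left out. The costimulatory receptors Cd28, Icos and Tnfrsf4 fell by 0.74 ± 0.09, 1.81 ± 0.09 and 2.05 ± 0.20, and of 24 costimulatory and TNF family genes tested 9 were lower and 1 was higher. With 1 library left out 6 to 8 were lower, and 3 of the 10 calls (Tnfrsf14, Tnfsf8 and Fasl) follow the mark.

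Genes of the CD8 lineage were mostly higher in CD4lo cells. Of 18 tested, 10 were higher and 2 lower, with a median of 0.62, and 7 to 10 were higher with 1 library left out. Ccl5, a chemokine of cytotoxic cells, stood at 35.3 and 29.8 CPM in CD4hi and 107 and 119 in CD4lo cells (1.79 ± 0.10, adjusted p = 2.42e-08). Nkg7, a granule membrane protein, stood at 15.2 and 15.9 CPM against 36.9 and 49.7 (1.46 ± 0.16), and Ly6c2, a surface antigen of CD8 cells, at 22.4 and 24.9 against 74.9 and 91.0 (1.80 ± 0.13). All 18 tested genes were higher in WT CD8 than in WT CD4 cells. The 2 lower members in CD4lo cells, Itgae and Cxcr3 (-1.03 ± 0.19), follow the mark.

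The sizes differed from those between the wild-type lineages. The median log2 fold change of the 18 genes was 2.34 in WT CD8 against WT CD4. The summed level was 790.8 and 802.8 CPM in CD4hi, 1063 and 1106 in CD4lo, 1341 and 1354 in DP and 2164 and 2219 in WT CD8 libraries. CD4lo cells thus stood above CD4hi and below DP and WT CD8 cells on this sum.

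Effector molecules showed no single direction. Of 19 cytotoxic genes tested, 4 were higher and 3 lower, and with 1 library left out 3 or 4 were higher and 1 or 2 lower. Gzma, a granule protease, rose from a mean of 0.946 CPM to one of 17.4 (4.15 ± 0.44). Prf1, the pore protein, stood at 33.3 and 38.5 against 55.5 and 51.7 CPM (0.58 ± 0.11), a call that ended without CD4lo 1 or CD4hi 1 (adjusted p up to 0.0624). Gzmk fell from 7.34 and 9.15 CPM to 0.94 and 1.96 (-2.57 ± 0.46), followed the mark and lost its call without CD4lo 1 (adjusted p = 0.0502). Gzmb did not pass the test (-0.27 ± 0.28), and nor did Ifng, the type 1 cytokine, at 4.12 and 3.05 against 6.83 and 8.81 CPM (1.11 ± 0.32, adjusted p = 0.0517).

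Type 1 genes were higher in 6 of 12 tested and lower in 1, and 4 or 5 were higher with 1 library left out. Il18rap, a chain of the interleukin 18 receptor, rose from 8.41 and 9.49 CPM to 52.9 and 39.8 (2.38 ± 0.30), and its partner Il18r1 rose by 0.59 ± 0.09. The factors Tbx21 (0.85 ± 0.22) and Eomes (0.66 ± 0.13), which drive cytotoxic and type 1 genes, passed the test, but Tbx21 lost its call without CD4lo 1, CD4lo 2 or CD4hi 1 (adjusted p up to 0.264) and Eomes without CD4lo 1 or CD4hi 1 (adjusted p up to 0.103).

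Of 30 NK receptor genes 20 were tested, and 8 of these passed the low-count filter only through CD4lo, so no count over the list is given as support, with all libraries or fewer. Klrk1, which encodes the activating receptor NKG2D, stood at 3.40 and 2.71 CPM in CD4hi and 40.9 and 38.2 in CD4lo cells (3.69 ± 0.20, adjusted p = 2.42e-08). Its CD4lo mean was also above that of WT CD8 cells, 20.7 CPM. Klrd1, which encodes CD94, rose from 7.70 and 7.96 CPM to 32.2 and 32.5 (2.04 ± 0.17). Klrc1, the inhibitory partner of CD94, stood at 0.18 and 0.68 CPM against 20.2 and 20.6, with both CD4lo libraries far above both CD4hi libraries.

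The NK receptor genes Ncr1 and Klra7 were close to absent outside CD4lo cells. Both passed the low-count filter only through CD4lo, where they are high, so this supports nothing further. Ncr1, which encodes the NK receptor NKp46, had 157 counts over the CD4lo and 2 over the CD4hi libraries (ratio 71.8, 19.5 to 598), and 10, 1 and 8 counts over WT CD4, WT CD8 and DP. Klra7, a Ly49 receptor, had 60 counts in CD4lo and 0 in CD4hi, at least 18.3-fold higher against 3 counts over the group. Its call ended with each of the 4 libraries left out (adjusted p up to 0.147) and in DESeq2. The summed level of 10 tested NK cell markers was 138.9 and 151.9 CPM in CD4lo, 50.8 and 52.9 in CD4hi and 142.8 and 130.1 in WT CD8 libraries. Of these 10, 4 passed the filter only through CD4lo, so no count of calls is given for them, and the part of NK cells in the values above was not tested.

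Genes of gamma delta T cells were read although the sort was for the beta chain, and they moved both ways. Of 17 genes listed 13 are in the table and were tested, 5 of them passing the filter only through CD4lo (Cd163l1, Sox13, Tcrg-C1, Tcrg-C2 and Ltb4r1), so no count over the list supports a direction. Maf and Ccr6, factor and chemokine receptor of type 17 cells, were the members that fell, by 1.55 ± 0.09 and 1.53 ± 0.20. Cd163l1, a scavenger receptor gene of gamma delta cells, stood at 1.61 and 0.68 CPM in CD4hi and at 41.0 and 45.0 in CD4lo libraries (5.22 ± 0.30, adjusted p = 4.18e-08). Sox13, a lineage factor of these cells, had a mean of 0.44 CPM in CD4hi and 17.7 in CD4lo cells. For both genes the DP and wild-type libraries were as low as CD4hi, with group means up to 1.29 CPM.

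The genes of the gamma and delta receptor loci given here were higher in CD4lo cells, but passed the low-count filter only through CD4lo. Their values therefore support nothing further. Tcrg-C1, a gamma constant region, stood at 1.07 and 0.51 CPM in CD4hi and 31.2 and 31.1 in CD4lo libraries (5.28 ± 0.36). Tcrg-V4, a gamma variable segment, had 154 counts over the CD4lo and 0 over the CD4hi libraries, at least 46.9-fold higher against 3 counts over the group. It had 1 count in DP and 0 in the wild-type groups. Trdv4, a delta variable segment, had 138 counts against 1 (ratio 126, 22.3 to 5020). Of 4 delta segments tested, 3 passed the filter only through CD4lo, Trdv4 among them. Gamma and delta segments resemble one another and some are shared or nested with the alpha locus, so their counts may be split between copies. All 3 gamma segments tested passed the filter only through CD4lo, and their summed level was 36.6 and 39.6 CPM in CD4lo against 0.178 to 2.66 CPM in the other 8 libraries.

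Genes of the type 17 state, which some gamma delta cells share, moved both ways. Of 16 tested, 5 passed the filter only through CD4lo (Il17a, Il17f, Il17re, Ltb4r1 and Sox13), so no count over the list is given. Blk, a kinase of type 17 gamma delta cells, rose from 1.97 and 1.69 CPM to 30.0 and 24.1 (3.88 ± 0.29), and Il23r rose by 1.62 ± 0.33, a call lost without CD4lo 1 (adjusted p = 0.168). Il17a had 70 counts in CD4lo and 3 in CD4hi (ratio 21.3, 7.01 to 106), and its call ended without CD4lo 1, CD4lo 2 or CD4hi 2 (adjusted p up to 0.221). Maf and Ccr6, which fell, are on this list too.

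Zbtb16, the factor PLZF of innate-like T cells, stood at 0.72 and 0.34 CPM in CD4hi and 13.3 and 12.7 in CD4lo libraries (4.58 ± 0.55). Zbtb16 passed the low-count filter only through CD4lo, where it is high, so its test supports nothing further. It followed the mark, at 1.94 CPM in WT CD4 against 0.36 in WT CD8 cells. Traj18, the joining segment of invariant NKT cells, did not pass the test (0.59 ± 0.24, adjusted p = 0.185).

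**Figure D3:**
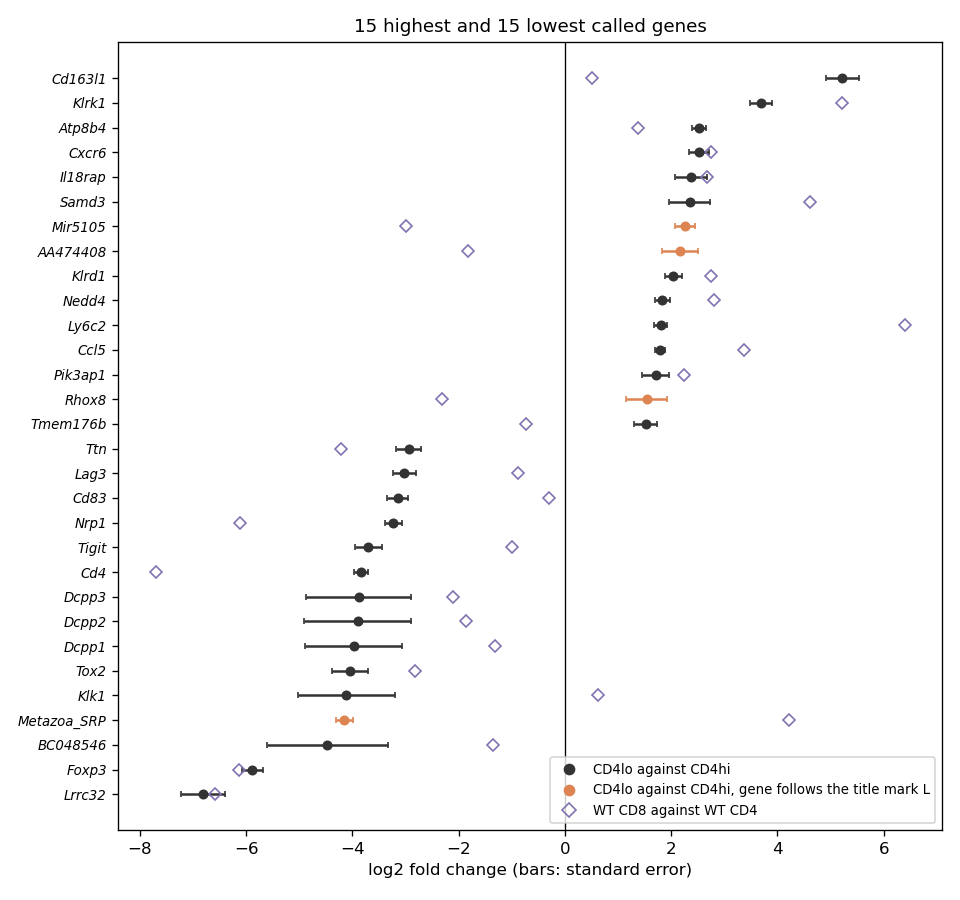
Log2 fold changes of the 15 highest and 15 lowest called genes whose mean level over the libraries reached 3 on the log2 CPM scale and whose 2 groups did not overlap, without predicted models, receptor segments, ribosomal or mitochondrial genes, CD4lo against CD4hi (circles, bars are SE, orange where the gene follows the mark) and WT CD8 against WT CD4 (diamonds). The fitted value of Lrrc32 rests on 2 CD4lo counts and depends on the prior count. Foxp3 lies at -5.88 and Klrk1 at 3.69. The 4 orange genes have diamonds on the other side of 0, by the definition of following the mark.

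By the same rule, among the 15 highest genes not yet named, Atp8b4, a lipid transporter subunit, rose from 9.84 and 11.2 CPM to 63.5 and 57.4 (2.52 ± 0.14). Samd3 (2.35 ± 0.39), Nedd4, a ubiquitin ligase (1.84 ± 0.14), and Pik3ap1, an adaptor of PI3 kinase (1.71 ± 0.25), also rose, as did Tmem176b (1.52 ± 0.22). Among the 15 lowest, Cd83, an activation marker, fell from 23.8 and 25.9 CPM to 2.55 and 3.13 (-3.15 ± 0.20), and Ttn, which encodes titin, fell by 2.94 ± 0.24. On mouse build mm10 Foxp3 lies on chromosome X (7573644 to 7595245), Tigit on chromosome 16 (43648867 to 43664146) and Klrk1 on chromosome 6 (129610323 to 129623864), all annotated as protein-coding genes.

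Of the 15 lowest, 5 lost the call without CD4hi 1. Dcpp2, a salivary gland secretory gene, stood at 1087 and 208 CPM in CD4hi and 79.6 and 2.54 in CD4lo libraries. Dcpp1, Dcpp3, Klk1 and BC048546 were likewise highest in CD4hi 1 of the 4 libraries. Dcpp2 also stood at 1227 and 1088 CPM in WT CD4 and at 381 and 255 in WT CD8 libraries. Klk1 stood at 4.09 and 1.39 CPM in WT CD4 libraries. The log2 fold change of Dcpp2 was -3.90 with all libraries and -2.24 without CD4hi 1, where it was not called (adjusted p = 0.249), and it was not called without CD4lo 2 either, nor were Dcpp1 and Dcpp3. Klk1 went from -4.11 ± 0.91 to -0.98 without CD4hi 1 (adjusted p = 0.482), and Klk1 and BC048546 also lost the call without either CD4lo library.

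Of 23 genes of the naive and quiescent state 3 were higher and 0 lower, and 1 or 2 were higher with 1 library left out. Of 26 memory and activation genes 8 were higher and 3 lower, against 2.76% and 4.27% of all genes tested. With 1 library left out 3 to 6 of them were higher and 2 or 3 lower, and 3 of the calls follow the mark. Cd44, a marker of activated and memory cells, stood at 96.8 and 94.0 CPM in CD4hi and 92.1 and 97.7 in CD4lo cells. Cd44, the homing receptor Ccr7 (0.27 ± 0.09) and the quiescence factor Klf2 (0.30 ± 0.10) did not pass the test. Il7r, the survival cytokine receptor, was higher at 461 and 426 against 305 and 322 CPM (0.50 ± 0.07), and it follows the mark. Of 31 cell cycle genes 6 were lower and 0 higher, with a median of -0.58. Mki67, a proliferation marker, stood at 102 and 116 against 68.1 and 54.0 CPM (-0.82 ± 0.11), but 1 to 3 cell cycle genes were called with 1 library left out.

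Of 42 interferon stimulated genes tested, 2 were higher in CD4lo than in CD4hi cells and 0 lower (2 or 3 and 0 or 1 with 1 library left out), close to the 2.76% of all genes, while 37 were higher in WT CD8 than in WT CD4 cells. Of the 2, Ifit3 rose by 0.46 ± 0.09 and Slfn8 follows the mark. Of 14 phosphodiesterase genes 5 were higher by 0.49 to 0.72 and 0 lower, and 3 or 4 were higher when 1 library was omitted. Ribosomal protein genes were higher in 9 of 81 and lower in 1, but with CD4lo 1, CD4lo 2, CD4hi 1 or CD4hi 2 left out, 19, 2, 2 and 13 were higher.

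**Figure D4:**
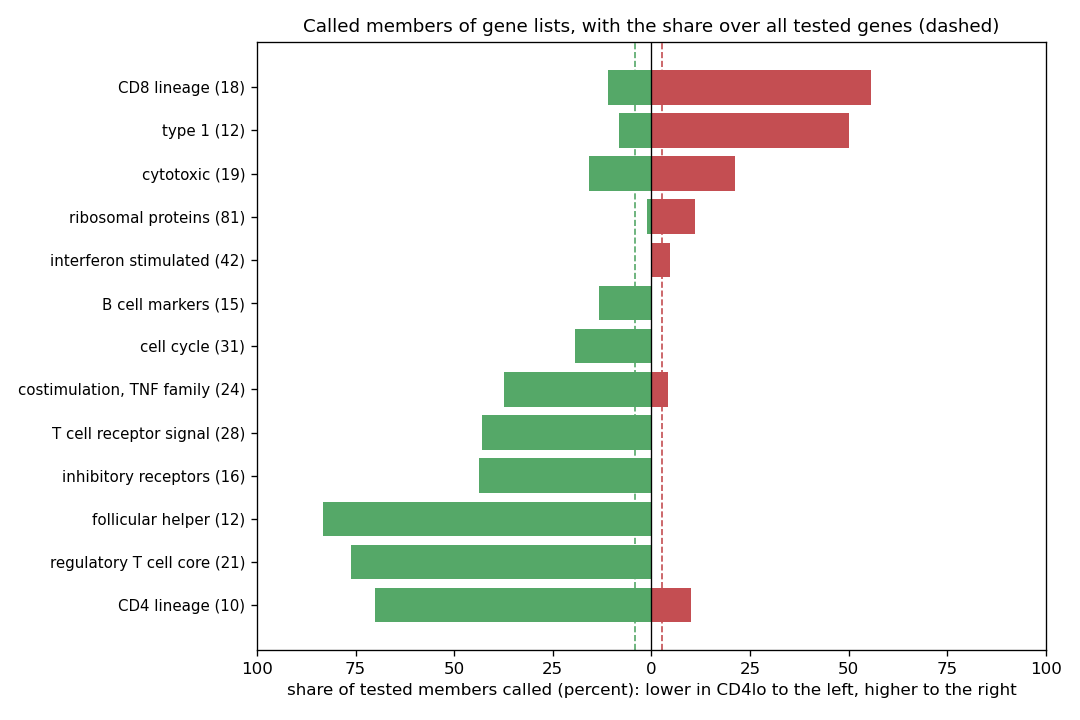
Share of the tested members of 13 gene lists called lower (left) or higher (right) in CD4lo than in CD4hi cells, in percent, with the number tested in brackets. Dashed lines mark the shares over all tested genes, 4.27% lower and 2.76% higher. Regulatory and follicular helper lists reach furthest to the left.

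Beside the NK cell markers above, marker lists of other spleen cells were read. Of 5 plasma cell markers tested 2 were lower, Irf4 and Prdm1, both also factors of activated T cells, with sums of 43.3 and 47.0 against 104.2 and 104.5 CPM, and 1 or 2 were lower with 1 library left out. Of 15 B cell markers tested 2 were lower, Cd22 and Ighm (0 or 1 with a library left out), and the summed level of the 15 was 254.1 and 293.0 CPM in CD4lo and 342.5 and 319.5 in CD4hi libraries. Cd79a, a chain of the B cell receptor, stood at 1.69 to 3.52 CPM in all 4 libraries. Of 13 macrophage markers 0 were called by edgeR or DESeq2 and 4 had an unadjusted p under 0.05, with sums of 203.8 and 218.7 against 239.8 and 241.1 CPM. Of 10 T cell markers 3 were lower (Trac, Cd5 and Cd6) and 0 higher.

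The wild-type lineages served as a reference with no shared library. Of the 857 genes 324 changed the same way in WT CD8 against WT CD4, 114 higher in both (33.9% of the 336 and 8.41% of the 1356 higher in WT CD8) and 210 lower in both (40.3% of the 521 and 16.2% of the 1295 lower in WT CD8). Another 177 were called in opposite directions, and 356 in CD4lo against CD4hi alone by these thresholds. For all tested genes the shares called higher and lower in WT CD8 were 11.1% and 10.6%, together 21.7%. Across the 12193 genes the correlation of the 2 sets of fold changes was 0.24 (Pearson) and 0.174 (Spearman), a description across genes, which are not independent.

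Size and direction were then compared by a test of the difference of the 2 differences. It called 1424 genes (11.7%), among them Zbtb7b (-1.62 against -5.71 in wild type) and Cd4 (-3.83 against -7.70), whose differences were smaller between the OB11 groups. Foxp3, at -5.88 and -6.12, did not pass this test. Cd163l1 (5.22 against 0.52) and Tcrg-C1 (5.28 against -0.22) passed it too, but both entered the test only through CD4lo, where they are high, so this supports nothing further.

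**Figure D5:**
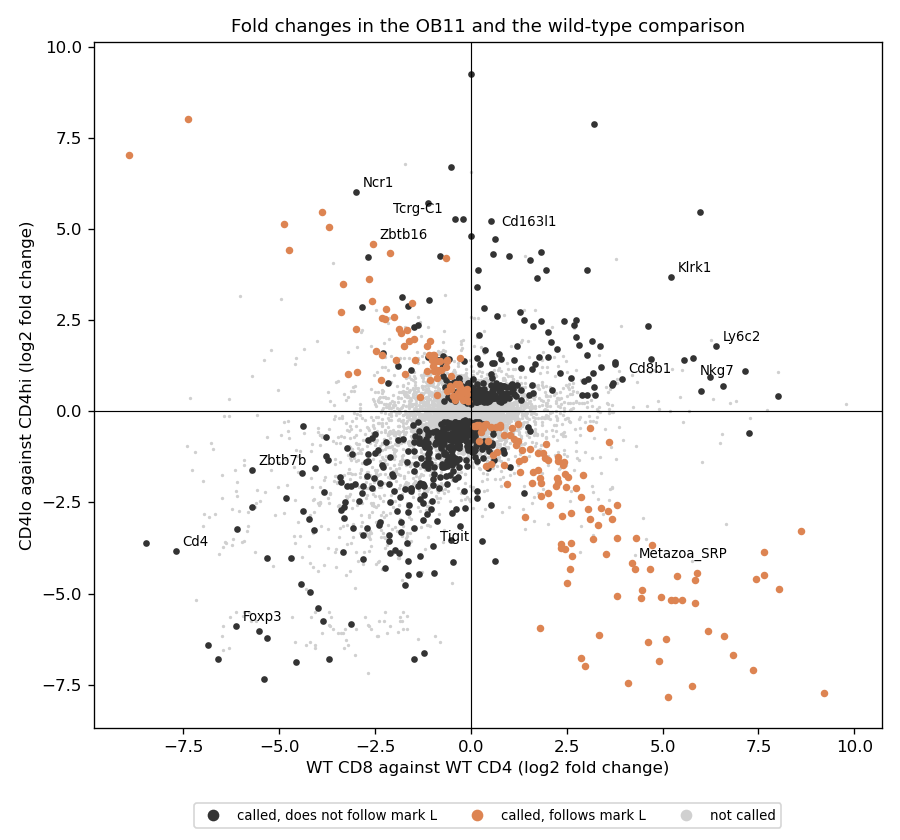
Log2 fold change of each of the 12193 tested genes in WT CD8 against WT CD4 (x axis) and in CD4lo against CD4hi (y axis). Dark points were called in CD4lo against CD4hi, and orange points also follow the mark L of the library titles. Most orange points lie in the upper left and lower right, where the 2 comparisons have opposite signs, a place set by the definition of following the mark. Fitted values of genes at or near 0 counts depend on the prior count.

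Genes following the mark made up much of the opposite group. By its definition, a gene that follows the mark has opposite signs in the 2 comparisons, so this split was largely fixed in advance. Of all tested genes 590 (4.84%) follow it, of the 857 called 196 (22.9%), of the 177 opposite ones 154, and of the 324 shared ones 0, the last by construction. Without them 661 genes were called, 257 higher and 404 lower. By GENCODE annotation 44.9% of the 196 are pseudogenes and 36.7% protein-coding genes, against 1.66% and 88.0% of the other 661. The most abundant was Metazoa_SRP, a signal recognition particle RNA, at 2671 and 2622 CPM in CD4hi and 170 and 126 in CD4lo libraries. WT CD4 was low too at 128 and 133 CPM, while DP and WT CD8 libraries held 1997 to 3554. Mir5105 ran the other way, with 144 and 168 CPM in CD4hi and 759 and 741 in CD4lo libraries. Of the genes named above, Foxp3, Cxcr5, Tigit, Klrk1 and Ccl5 do not follow the mark. Nor do Cd163l1 and Tcrg-C1, which entered the test only through CD4lo.

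Promoters were read for the RUNX core motif, since Runx3 differed between the groups. The motif searched was TGTGGT on either strand in the 250 bases before the first RefSeq start of each gene (GRCm38.p6). It was present in 31 of 194 matched promoters of higher genes , 32 of 315 of lower genes (10.2%), 903 of 8241 of all tested genes and 3832 of all 27025 genes (14.2%). A match is a run of letters, not a bound site. Klrk1 and Cxcr6 are shown as strongly higher genes and Tigit as a strongly lower one that holds the same core, each 5′ to 3′ on the gene's strand with the match in capitals, at chr6:129623865-129624114 (minus strand), chr9:123806227-123806476 (plus strand) and chr16:43664185-43664434 (minus strand).
Klrk1: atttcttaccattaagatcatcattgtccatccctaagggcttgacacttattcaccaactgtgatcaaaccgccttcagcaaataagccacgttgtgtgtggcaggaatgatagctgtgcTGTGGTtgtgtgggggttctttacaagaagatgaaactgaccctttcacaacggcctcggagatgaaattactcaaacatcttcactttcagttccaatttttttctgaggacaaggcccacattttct
Cxcr6: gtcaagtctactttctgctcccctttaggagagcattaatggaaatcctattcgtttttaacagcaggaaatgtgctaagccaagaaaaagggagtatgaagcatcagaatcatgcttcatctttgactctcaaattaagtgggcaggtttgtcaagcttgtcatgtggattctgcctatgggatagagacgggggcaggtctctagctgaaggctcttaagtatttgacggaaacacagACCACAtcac
Tigit: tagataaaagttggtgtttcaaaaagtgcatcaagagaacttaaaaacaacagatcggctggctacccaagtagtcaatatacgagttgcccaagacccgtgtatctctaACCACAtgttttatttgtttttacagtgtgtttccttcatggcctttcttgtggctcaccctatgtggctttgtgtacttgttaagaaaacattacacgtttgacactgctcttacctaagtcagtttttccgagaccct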

How the data were processed

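The values are whole-number read counts by gene symbol as deposited by the authors. TopHat2, HTSeq and mm10 are named in the submitters' processing notes; versions, annotation and strand setting are not given in the sources used here. No column was left out. Counts were fitted in R 4.3.3 with edgeR 4.0.16 (TMM scaling, filterByExpr by group, quasi-likelihood F test, two-sided, all 10 libraries, 5 residual degrees of freedom), with Benjamini-Hochberg adjustment over 12193 genes. SE is the fold change divided by the root of F. An exact permutation test of 2 against 2 libraries has a smallest p of 0.333 and was not used. On counts simulated from these libraries, the fit recovered 62.6% of genes changed 2-fold and 81.4% of those changed 4-fold. Counting intervals (95%, exact) and floors of 3 counts cover counting error only. Alternatives were DESeq2 1.42.0, other scalings and filters, fewer libraries and a replicate block. The gene lists and the comparison were chosen with earlier results of these data known. Named genes are Zbtb7b, Cd4, Cd8a, Cd8b1 and Runx3, the 15 highest and 15 lowest called genes of average log2 CPM at least 3 whose libraries do not overlap (without predicted models, ribosomal or mitochondrial genes, or receptor segments), key and most changed list members, and up to 10 genes opposite in wild type. Trbc1, Trbc2, Traj18, Tnfrsf14, Maf, Ltb4r1, Il17f and Il17re were named after their values were seen. Positions are from GENCODE M21, in which 90.1% of tested symbols were found, and promoters from RefSeq (GRCm38.p6). Results for some genes are not reported here.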

Additional observations from a re-analysis of the deposited data

Results flagged for a closer look

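A total of 23 named genes changed one way in CD4lo against CD4hi cells and the opposite way in WT CD8 against WT CD4 cells, and passed the edgeR test of the difference of the 2 log2 fold changes. That difference is given for each. Of the 23 genes, 3 do not follow the title mark L: Ncr1 (9.02), Hspa1b (1.51) and Gfi1 (-1.18). Ncr1 rests on 10 and 1 counts in the wild-type groups and entered the test only through CD4lo. Zbtb16, which follows the mark, also entered only through CD4lo and rests on 6 CD4hi and 4 WT CD8 counts. Of the 23 genes 12 kept the CD4lo call with each of the 4 libraries left out and 11 lost it at least once. Gfi1 lost it without CD4lo 1, CD4lo 2 or CD4hi 2 (edgeR adjusted p up to 0.152) and in DESeq2 (0.12), H2-Ob in all 4 omissions (up to 0.231), and Rhox8 (up to 0.144) and Arrdc4 (up to 0.167) in 3. Baiap3, Rnf144a, Arsb, Fasl and Hist1h4c lost it in 2, and Gzmk and Cd22 without CD4lo 1. The genes that follow the mark and were higher in CD4lo cells were Zbtb16 (7.15), mt-Tg (6.11), Mir5105 (5.26), Rnf144a (4.24), Arsb (4.06), AA474408 (3.99), Rhox8 (3.85), Slfn8 (3.22), Fasl (2.53), Hist1h4c (2.24) and Rps7 (0.849). Those that follow it and were lower were Metazoa_SRP (-8.36), Gzmk (-4.63), Baiap3 (-4.44), Cd22 (-4.16), Arrdc4 (-3.57), Itgae (-3.21), Cxcr3 (-2.56), H2-Ob (-1.18) and Tnfsf8 (-0.824). In these 20 genes what the mark stands for and the sorted population cannot be told apart.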

How the results depend on the processing

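Calls numbered 857 with all libraries and settings as described. With 1 of the 4 libraries left out they ranged from 507 to 573, those higher from 199 to 254, those lower from 293 to 333, those of at least 2-fold from 294 to 335, those shared with WT CD8 against WT CD4 from 217 to 248 and those of the difference of differences from 1061 to 1165. Fewer samples enter these fits. DESeq2 called 576 genes, 343 of them lower. Without a filter on low counts 1106 were called and 521 were higher, in a larger set of tested genes. Without the genes that follow the mark, 661 were called and 276 had at least a 2-fold change. Of 169 named genes that were called, 91 kept the call in every alternative except the removal of genes that follow the mark, which was not counted. The added alternative below was counted. Of the 217 named genes tested, 0 changed sign while called. A replicate block called 745 genes; same-numbered libraries of the 2 groups correlated at 0.126 in their deviations, and over all pairs of groups from -0.548 to 0.126, so the numbers were not taken to pair the libraries. Without the 2 libraries with the most genes detected, an alternative chosen after seeing the data, 792 were called. With 2 libraries per group the low counts of CD4lo (Foxp3, Il21) and CD4hi (Tcrg-V4, Ncr1) limit how exactly their folds are known.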
